A study of Danio rerio with 30 samples.

Results

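The cell cycle genes are a list of 46 names of DNA replication and mitosis genes, looked up by gene name in the spleen transcriptomes of adult zebrafish. Rows of the deposited count matrix were taken where the zebrafish Ensembl gene name, in any case, was in the list. This gave 47 of 31901 gene IDs, because 45 of the 46 names were found, and mcm6 and rrm2 each belonged to 2 IDs. The name birc5a was not matched. All 47 rows passed the low-count filter, as did 17841 IDs of the whole matrix.

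The spleens came from fish of the AB strain aged 100 days after fertilization. They had been incubated as embryos and grown as larvae at 24, 28 or 32 °C, and the labels give 28 °C for the adult fish. At each incubation temperature, LPS fish received 2 µl of lipopolysaccharide (LPS) at 50 mg/ml into the body cavity 12 h before sampling, and control fish were the comparison. LPS, here from Pseudomonas aeruginosa, sits in the outer membrane of Gram-negative bacteria and sets off inflammation. The 6 groups, each of 5 libraries, were 24 °C LPS, 24 °C control, 28 °C LPS, 28 °C control, 32 °C LPS and 32 °C control. The labels do not say what control fish received, which sex the fish were or at what hour they were sampled. Each numbered replicate was taken as 1 fish from its label, and every p-value here rests on the spread among these samples alone.

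Cells that divide copy their DNA in S phase and separate the copies in mitosis. Before S phase the MCM helicase is loaded at replication origins with the help of Cdc6, a step that geminin blocks, and during S phase the sliding clamp PCNA holds polymerases on DNA. Entry into mitosis depends on cyclins that activate Cdk1, then condensins and topoisomerase II compact the chromosomes, the Aurora, Polo-like and Bub kinases guide their attachment to the spindle, and Cdc20 switches on the anaphase promoting complex, which marks cyclins and securin for destruction. Transcripts of these genes are low in resting cells, so their level in a tissue is widely read as a measure of how many cells divide. In zebrafish the spleen stores blood cells and holds immune cells, while the kidney marrow is the main blood-forming organ. Oocytes store transcripts of many of the same genes for the first divisions of the embryo. In whole tissue, fewer dividing cells and less RNA per dividing cell cannot be told apart.

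Values are CPM, a gene's counts relative to its library total on a fixed scale, after TMM scaling (a correction for differences in RNA composition), and library totals ranged from 14840723 to 23401031 counts. Adjusted p-values come from edgeR's quasi-likelihood F test with Benjamini-Hochberg adjustment over all tested genes, and a gene was called where this was under 0.05. Fold changes are log2 values ± SE. Marker sums of cell types are CPM of the raw library total. Erythroid markers (11 rows matched for 14 names) summed to between 40742 and 153810 CPM, and B and plasma cell markers to between 156 and 718 CPM, in all 30 libraries. Some libraries stood apart. Ovary and oocyte markers (30 rows for 32 names) made up 12400 CPM of 24 °C control replicate 4 and only 3.03 to 31.8 CPM of the other 29 libraries. Its meiosis markers summed to 103 CPM, against at most 8.15 CPM elsewhere, and its acinar pancreas markers to 46830 CPM, the highest of the 30. Liver markers made up 7977 CPM of 32 °C control replicate 8 and 1051 CPM of the next library, and 28134 genes had a count in 32 °C control replicate 2, against 22887 in the next, which was 24 °C control replicate 4.

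Across the cell cycle genes, 3 results stood out. The library with ovary transcripts was above every other spleen in 43 of the 47 members, as it was in 20.2% of all tested genes. With all libraries, edgeR called none of the 47 for LPS at any incubation temperature, against at most 0.0168% of all genes in either direction. DESeq2 called 6 lower at 24 °C, against 0.919% of the genes it tested. edgeR called up to 18 lower there when another 24 °C control fish was left out, against 0.748% to 1.36% of all genes. Without the library with ovary transcripts it called 0 lower, against 0% of all genes. Control fish of 24 °C had 20 members called higher than control fish of 28 °C, against 1.54% of all tested genes. Without that library 0 were, against 0.00553%. With that library left out, the members were low in the 28 °C control fish, on average, relative to both other control groups. There 0 members were called, against 0.00553% of all genes higher at 24 against 28 °C and 0.404% at 32 against 28 °C. The members' median log2 CPM, centred on gene means over 29 libraries, was -0.95 and -0.91 in 28 °C control replicates 5 and 7. It was -0.04, -0.19 and 0.19 in replicates 1, 2 and 3. The 4 other 24 °C control fish had -0.02 to 0.39 and the 32 °C control fish 0.08 to 0.68. The neutrophil marker sum was 343 to 522 CPM (median 432) in the 4 other 24 °C control fish and 158 to 511 CPM (median 351) in 32 °C control fish, against 675 to 1185 CPM (median 708) in 28 °C control fish. The erythroid sum had medians of 93773 CPM, 81506 CPM and 51943 CPM in the same order. In that order the macrophage sum had medians of 3896, 6556 and 3734 CPM, and the acinar pancreas sum 577, 12219 and 1920 CPM. The acinar pancreas sum was 25479 CPM in 28 °C control replicate 7. The part of these cells in the result was not tested.

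In 24 °C control replicate 4, 43 of the 47 members were above their level in all 29 other libraries, as were 20.2% of all tested genes. The median ratio to the mean of the other 4 fish of the group was 5.93, with 14 members over 10-fold. The ratio was largest for ccnb2, a B-type cyclin, at 333 CPM, against 0.517 to 1.27 CPM in the other 4, a ratio of 414. The mcm6 row ENSDARG00000033231 was at 163 CPM, against 0.272 to 1.14 CPM in the other 4. These 2 rows were low in the other spleens, with at most 3.35 and 1.85 CPM in the other 29 libraries.

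Other members with high ratios had counts in every spleen. ccnb1, the other B-type cyclin that drives mitotic entry, stood at 516 CPM, against 7.11 to 17.0 CPM in the rest of the group, a ratio of 47.3. For aurka, the centrosomal Aurora kinase, the values were 135 CPM, against 4.14 to 6.62 CPM. The loading factor cdc6 reached 121 CPM, against 4.79 to 6.99 CPM, and its antagonist gmnn (geminin) 237 CPM, against 5.85 to 19.4 CPM. By role, the median ratio was 12.9 for the 6 cyclins and Cdk1, 10.1 for the 7 mitotic kinases and checkpoint genes, 9.19 for the 3 genes of mitotic exit, 6.17 for the 8 kinetochore and spindle genes, 5.53 for the 6 chromosome structure genes, 5.05 for the 4 nucleotide supply rows and 4.09 for the 13 replication rows.

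The 4 exceptions were ccne2, mcm3, mcm6 (ENSDARG00000057683) and rrm2 (ENSDARG00000020711). ccne2, an E-type cyclin of S phase entry, was at 4.73 CPM, against 4.53 to 5.10 CPM in the other 4. mcm3, a helicase subunit, was at 27.5 CPM, against 24.6 to 40.0 CPM, and the abundant mcm6 row at 33.7 CPM, against 35.4 to 51.6 CPM. Thus the 2 mcm6 rows differed: the row that was abundant in the other spleens was below the other 4 fish in this library, and the row near 0 elsewhere was the one in excess.

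A similar division held for mcm3 and mcm3l, a related gene that is not a member and was named after its values were seen. mcm3l (ENSDARG00000037532) had 163 CPM in 24 °C control replicate 4 and at most 1.13 CPM in the other 29 libraries. A RefSeq gene table lists for these genes the synonyms MCM6z and MCM6m, and MCM3z and MCM3m. In the frog Xenopus, separate maternal and zygotic forms of MCM3 and MCM6 are known. Whether the rows here correspond to such forms was not tested. ccna1, a germ cell cyclin in mammals, also outside the list, had 541 CPM there and at most 1.39 CPM elsewhere.

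**Figure D1:**
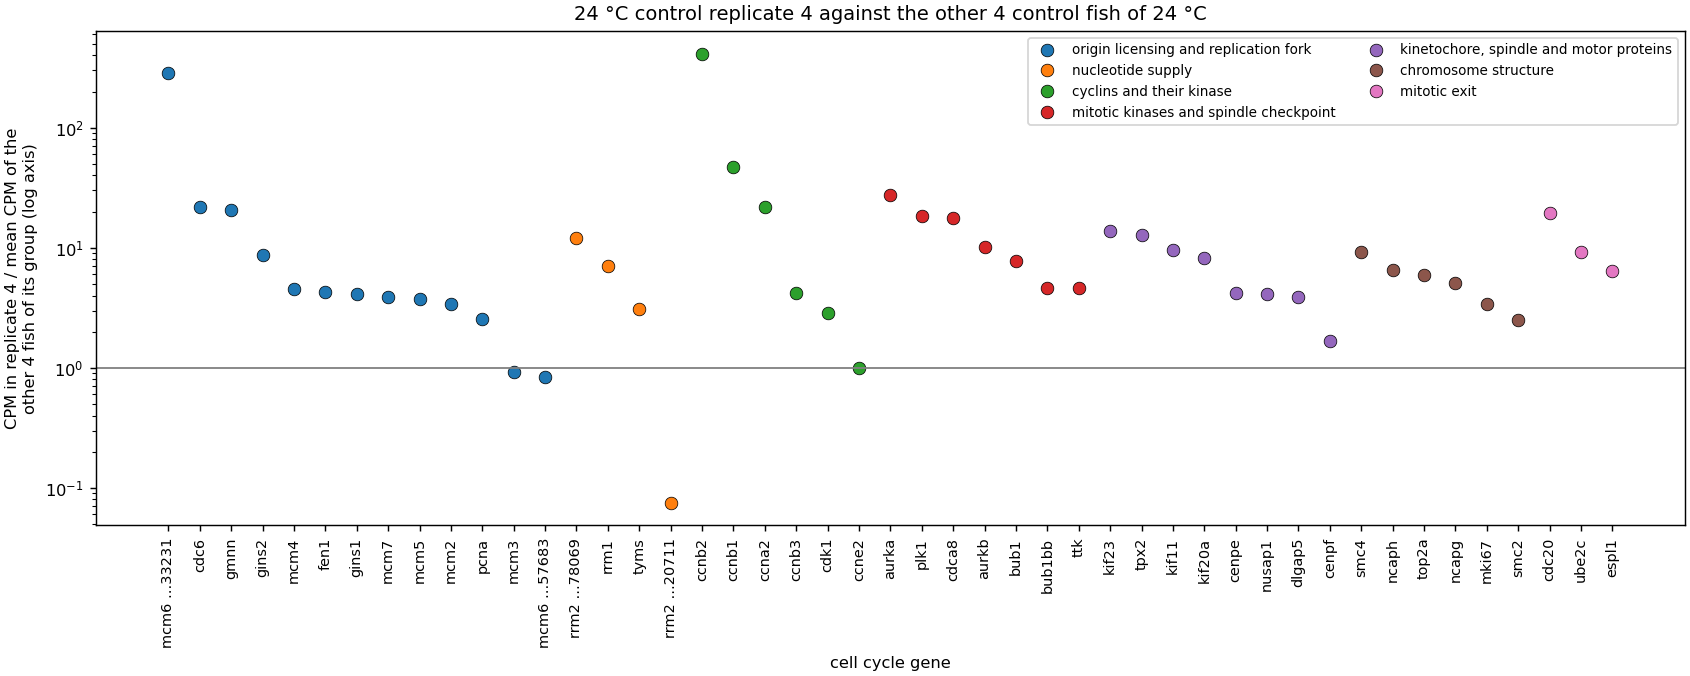
Ratio of the CPM of each cell cycle gene in 24 °C control replicate 4 to the mean CPM of the other 4 control fish of 24 °C (log axis), by role; the line marks a ratio of 1. All but 4 points lie above the line, with ccnb2 (413.7) and mcm6 ENSDARG00000033231 (287.8) highest.

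Most comparisons are therefore given with this library and without it. In the plot of all members by fish, its column is dark red in nearly every row, on a scale centred on the mean of the other 29 libraries. The median of the centred log2 CPM over the 47 members was 2.72 in that fish and lay between -0.95 and 0.68 in the other 29. The lowest were 28 °C control replicates 5 and 7, at -0.95 and -0.91, each of which held the lowest value of 16 of the 47 members. 28 °C LPS replicate 4 was at -0.54 and held the lowest value of 9 members. No share of all tested genes was taken for these counts of lowest values, and they are not read as results about the members. The highest were 32 °C control replicate 8 at 0.68, 32 °C LPS replicate 2 at 0.62 and 32 °C control replicate 3 at 0.56.

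The within-group SD of this median was 0.576 over all 30 libraries and 0.346 over 29. Blood progenitor markers (6 rows for 10 names) summed to 1249.7 and 959 CPM in 28 °C control replicates 5 and 7. The range over the 29 libraries was 432 to 1249.7 CPM, with a median of 683 CPM, so replicate 5 was the highest. Neutrophil markers reached 1185 CPM, the highest of all, in 28 °C control replicate 7. Erythroid markers reached 153810 CPM, the highest of all, in 28 °C LPS replicate 4. The part of these markers in the members' levels was not tested. In 32 °C control replicate 6 the replication and nucleotide rows had a median of 0.59 and the mitosis rows one of -0.13, so the 2 arms of the list did not always move together.

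**Figure D2:**
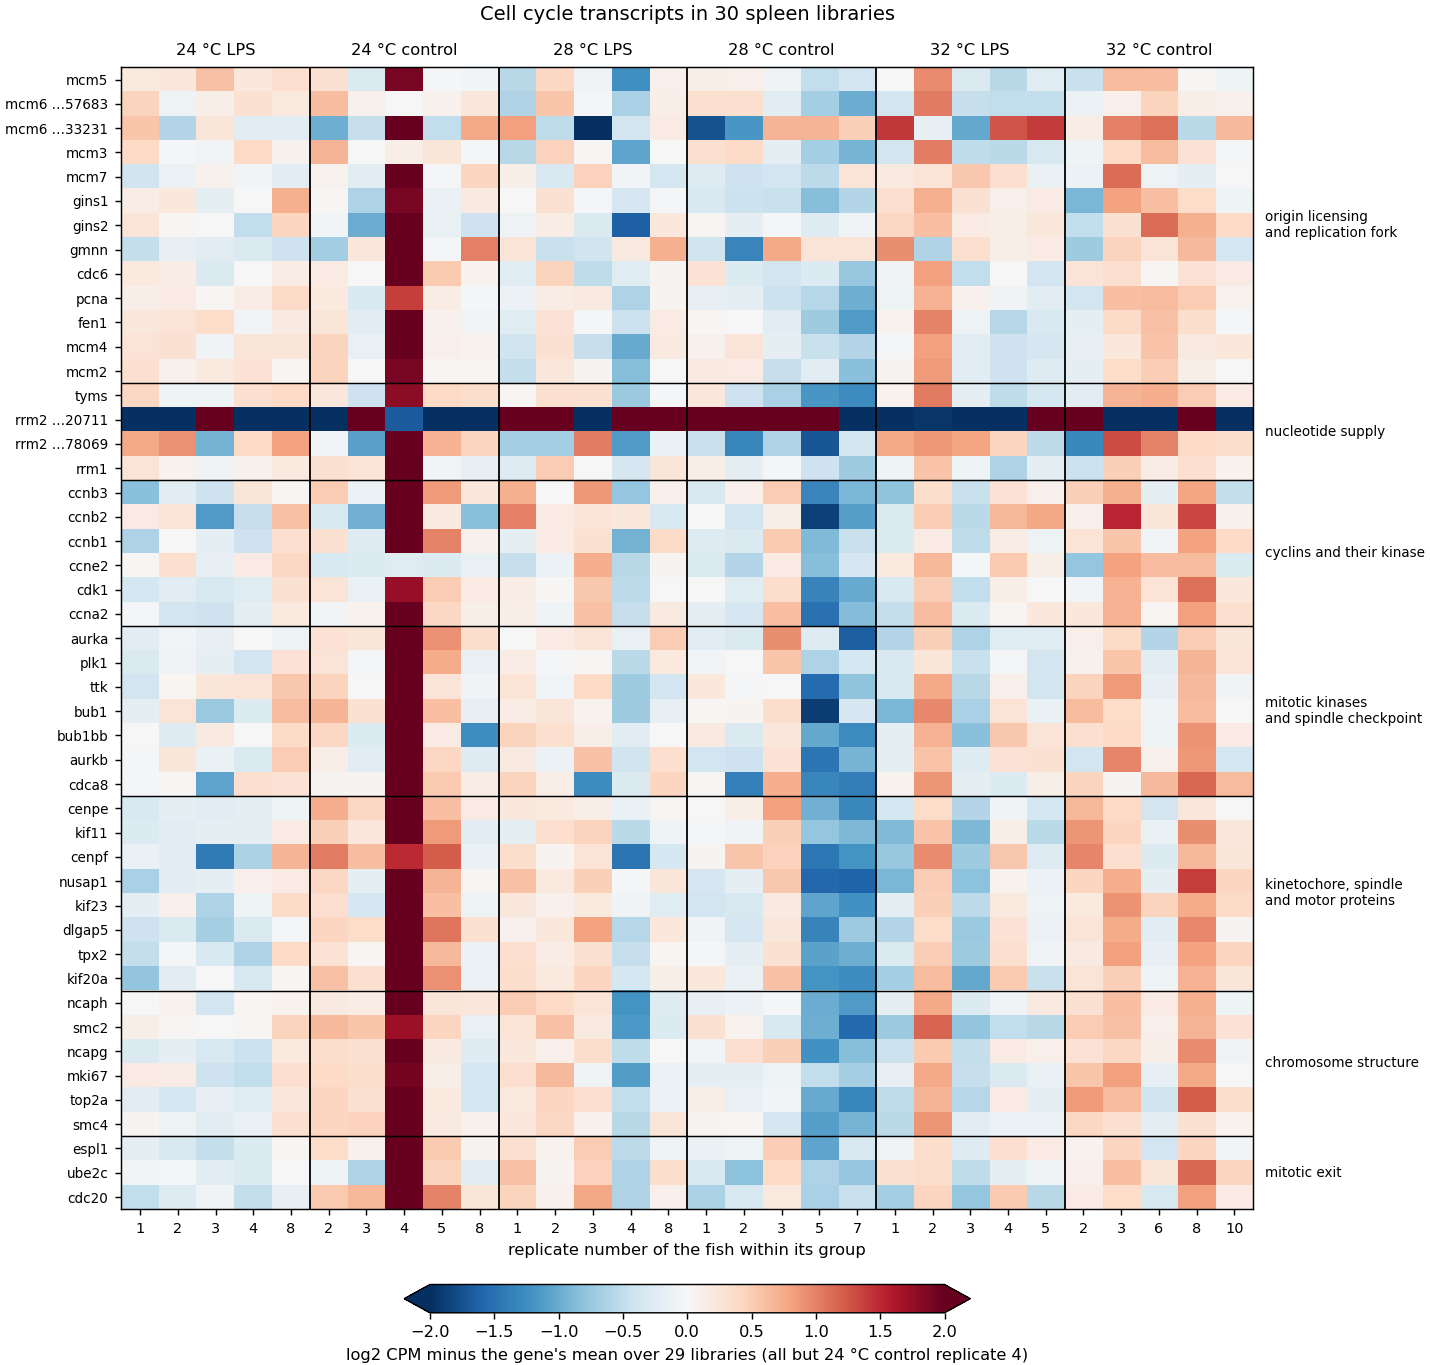
log2 CPM of the 47 rows (by role) in each of the 30 libraries, minus the gene's mean over the 29 libraries other than 24 °C control replicate 4; red is above and blue below that mean, and the scale ends at -2 and 2. 24 °C control replicate 4 is above the mean in 45 rows, while 28 °C control replicates 5 and 7 are above it in 3 rows each.

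Among the replication genes, pcna had the following levels. It was at 126, 128, 116, 126 and 150.1 CPM in 24 °C LPS fish, against 131, 92.8, 127 and 113 CPM in 4 of the 24 °C control fish and 298 CPM in replicate 4. At 28 °C the LPS fish had 106, 127, 129.8, 74.5 and 119 CPM and the control fish 102, 101, 84.7, 77.2 and 58.1 CPM. At 32 °C the LPS fish had 107, 186, 121, 109 and 98.6 CPM and the control fish 88.1, 174, 178, 162 and 120.2 CPM. The control fish of 28 °C were lowest as a group, with a mean of 84.6 ± 18.2 CPM (SD, n = 5), and every LPS group overlapped its controls.

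mcm5, a subunit of the MCM helicase, was at 46.4, 46.9, 60.6, 47.1 and 51.1 CPM in 24 °C LPS fish, against 49.7, 33.1, 39.3 and 38.8 CPM in 4 control fish and 150.4 CPM in replicate 4. In 28 °C LPS fish it was at 27.5, 53.7, 38.4, 17.2 and 43.4 CPM, against 44.1, 43.2, 38.7, 28.8 and 30.9 CPM in control fish. In 32 °C LPS fish it was at 40.3, 78.0, 33.2, 27.6 and 34.2 CPM, against 29.6, 62.9, 62.2, 41.2 and 37.7 CPM in control fish. A single fish, 32 °C LPS replicate 2, was the highest of the 29 and a single fish, 28 °C LPS replicate 4, the lowest.

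The helicase subunit mcm2 behaved alike in those fish. Its 24 °C LPS values were 55.0, 46.6, 50.2, 53.4 and 45.0 CPM, against 59.5, 43.6, 44.3 and 44.4 CPM in 4 control fish and 163 CPM in replicate 4. Its 28 °C LPS values were 31.5, 51.0, 45.4, 24.2 and 43.4 CPM, against 49.6, 49.3, 31.6, 37.8 and 24.6 CPM in control fish, and its 32 °C LPS values 45.5, 79.4, 37.9, 32.7 and 36.7 CPM, against 38.3, 56.7, 61.8, 47.4 and 43.7 CPM in control fish. The ranges overlapped in all 3 pairs. Without 24 °C control replicate 4, the 13 replication rows had a median log2 fold change of 0.14 for LPS at 24 °C (9 above 0), 0.02 at 28 °C and -0.11 at 32 °C. The highest at 24 °C was gins2, a part of the helicase at the fork, at 0.52 ± 0.33 (adjusted p = 0.548 by edgeR), and the lowest was gmnn at -0.51 ± 0.37.

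**Figure D3:**
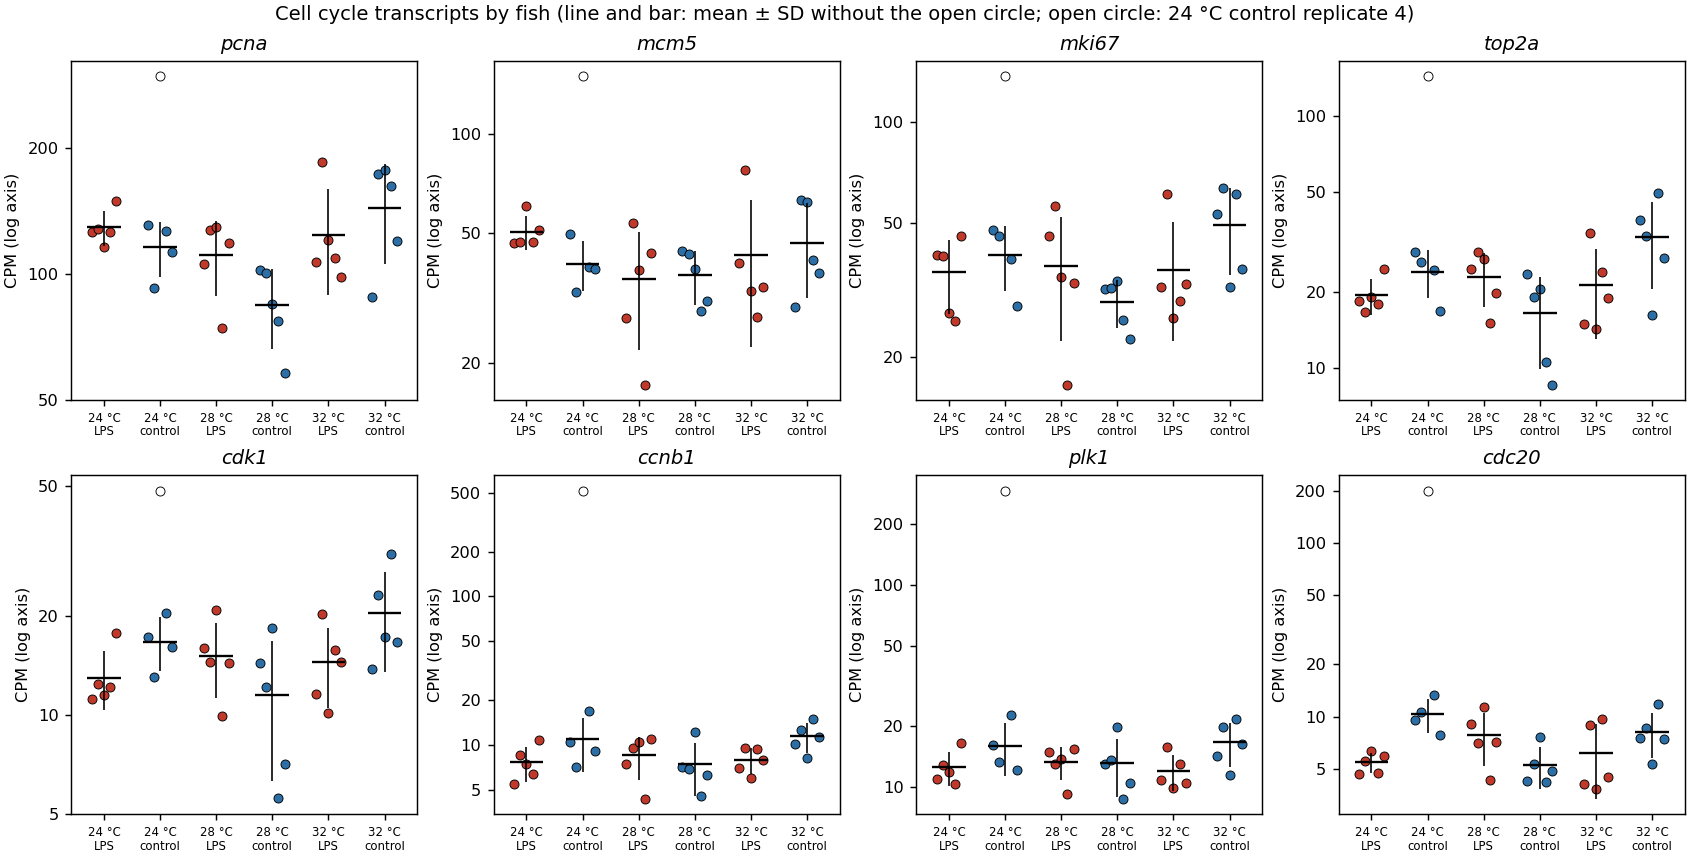
CPM (log axis) of 8 cell cycle genes in each fish, with LPS fish in red left of control fish in blue at each incubation temperature; the line and bar are the mean ± SD without 24 °C control replicate 4, which is the open circle. The open circle is above every other point in all 8 panels, and the ranges of LPS and control points overlap in every pair apart from cdc20 at 24 °C.

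Deoxynucleotides for S phase come from ribonucleotide reductase, with the subunits rrm1 and rrm2, and from thymidylate synthase (tyms). The name rrm2 belonged to 2 gene IDs, and reads may have been split between them in counting, so the separate values are uncertain. ENSDARG00000020711 held 3.52 to 14.2 CPM in 13 fish and at most 0.158 CPM in the other 17, of which 9 had no count. In the 13 fish it took 43.5% to 56.1% of the CPM of both IDs, and in the other 17 at most 0.428%. No fish lay between.

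The 13 fish were 1 of 5 in 24 °C LPS, 1 of 5 in 24 °C control, 4 of 5 in 28 °C LPS, 4 of 5 in 28 °C control, 1 of 5 in 32 °C LPS and 2 of 5 in 32 °C control. The fold changes of this ID have SEs of 1 log2 unit or more in each comparison and are not read here. The sum of both IDs averaged 21.9 ± 4.66 CPM in 24 °C LPS fish and 17.6 ± 4.14 CPM in 24 °C control fish without replicate 4 (SD, n = 5 and 4). It averaged 20.9 ± 6.15 CPM in 28 °C LPS fish and 13.4 ± 4.75 CPM in 28 °C control fish, and 23.0 ± 2.64 CPM in 32 °C LPS fish and 25.0 ± 10.2 CPM in 32 °C control fish (SD, n = 5 each). The intervals of 1 SD around the means overlapped in each pair, and the sums were not tested.

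**Figure D4:**
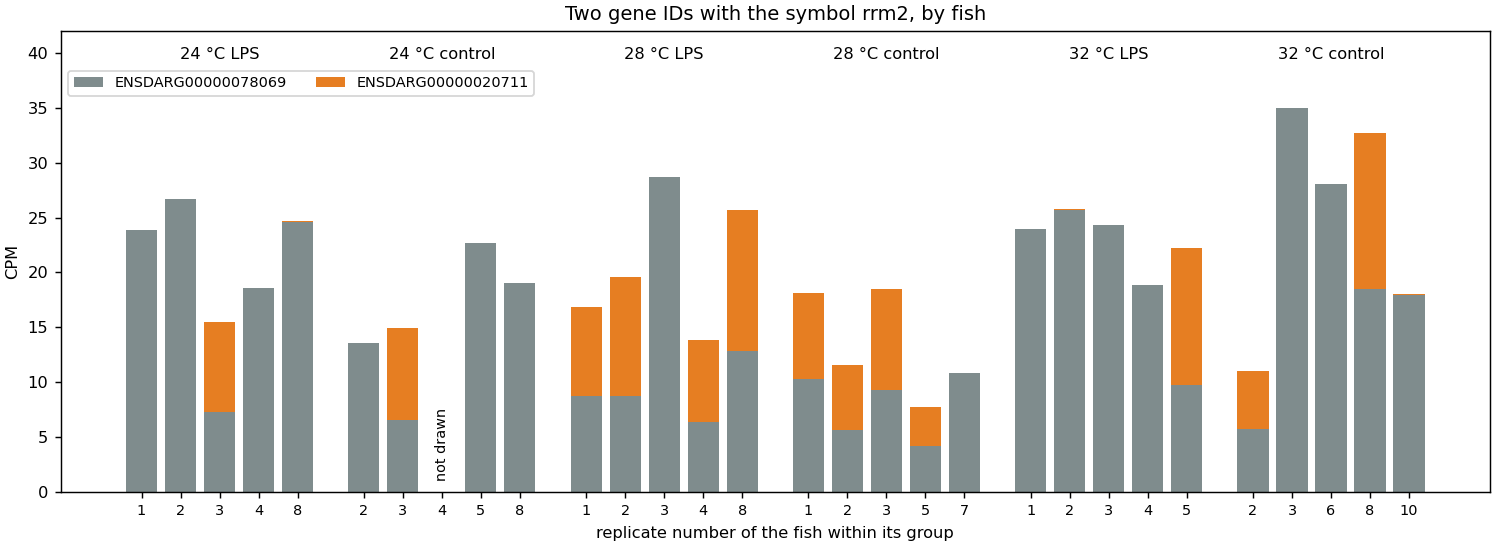
CPM of the 2 gene IDs with the symbol rrm2, stacked by fish; 24 °C control replicate 4 (185 CPM) is not drawn. The second ID (orange) takes about equal CPM to the first in 13 fish, 8 of them incubated at 28 °C, and is near 0 in the rest.

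The first rrm2 ID, ENSDARG00000078069, was at 23.9, 26.7, 7.27, 18.5 and 24.6 CPM in 24 °C LPS fish, against 13.5, 6.55, 22.7 and 19.0 CPM in 4 control fish and 185 CPM in replicate 4. At 28 °C the values were 8.72, 8.74, 28.7, 6.37 and 12.8 CPM in LPS fish and 10.2, 5.65, 9.25, 4.20 and 10.8 CPM in control fish, and at 32 °C 23.9, 25.7, 24.3, 18.9 and 9.76 CPM in LPS fish and 5.70, 35.0, 28.0, 18.5 and 18.0 CPM in control fish. Its lowest values fell in fish that carried the second ID. tyms, which was among the smallest p-values for LPS at 28 °C, had 12.9, 15.9, 15.8, 7.57 and 12.5 CPM in LPS fish and 14.8, 9.53, 8.12, 5.62 and 5.19 CPM in control fish there (0.58 ± 0.35, adjusted p = 0.674 by edgeR).

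Of the cyclins, ccnb1 was at 5.48, 8.54, 7.39, 6.36 and 10.7 CPM in 24 °C LPS fish, against 10.5, 7.11, 17.0 and 9.05 CPM in 4 control fish and 516 CPM in replicate 4. It was at 7.38, 9.53, 10.5, 4.34 and 11.0 CPM in 28 °C LPS fish, against 7.07, 6.89, 12.2, 4.54 and 6.23 CPM in control fish. At 32 °C it was at 7.02, 9.56, 5.96, 9.40 and 7.86 CPM in LPS fish, against 10.2, 12.5, 8.16, 15.0 and 11.2 CPM in control fish. In 32 °C fish 4 of 5 controls were above all LPS fish, and the ranges overlapped. Its log2 fold change for LPS at 24 °C was -3.86 ± 0.83 (adjusted p = 0.0539) with all libraries and -0.43 ± 0.29 (adjusted p = 0.576) without replicate 4, by edgeR.

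ccna2, the A-type cyclin of S phase and early mitosis, had 10.4, 8.28, 8.08, 9.33 and 12.3 CPM in 24 °C LPS fish, against 10.4, 11.3, 14.3 and 11.7 CPM in 4 control fish and 259 CPM in replicate 4. Its values were 11.7, 10.1, 16.2, 7.76 and 12.2 CPM in 28 °C LPS fish, against 9.42, 8.51, 16.4, 3.74 and 5.83 CPM in control fish, and 7.68, 16.5, 8.91, 11.1 and 12.4 CPM in 32 °C LPS fish, against 12.4, 17.6, 11.1, 19.1 and 13.5 CPM in control fish. The 28 °C control fish spread from 3.74 to 16.4 CPM, and replicate 5 was the lowest of the 29.

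cdk1, the kinase that both cyclins activate, was at 11.2, 12.5, 11.5, 12.2 and 17.7 CPM in 24 °C LPS fish, against 17.3, 13.1, 20.5 and 16.2 CPM in 4 control fish and 48.3 CPM in replicate 4. It was at 16.0, 14.5, 20.9, 9.98 and 14.4 CPM in 28 °C LPS fish, against 14.5, 12.2, 18.4, 5.62 and 7.10 CPM in control fish, and at 11.6, 20.4, 10.2, 15.8 and 14.5 CPM in 32 °C LPS fish, against 13.8, 23.2, 17.3, 31.0 and 16.7 CPM in control fish. In 24 °C LPS fish, 4 of 5 were below every control fish, and replicate 8 was not. The mean was 13.0 ± 2.69 CPM (SD, n = 5) in LPS fish and 16.8 ± 3.08 CPM (SD, n = 4) in the control fish without replicate 4.

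Among the mitotic kinases, plk1, the Polo-like kinase, had 11.0, 12.8, 11.9, 10.3 and 16.5 CPM in 24 °C LPS fish, against 16.1, 13.2, 22.6 and 12.1 CPM in 4 control fish and 294 CPM in replicate 4. It had 14.9, 13.0, 13.7, 9.24 and 15.5 CPM in 28 °C LPS fish, against 13.0, 13.6, 19.9, 8.74 and 10.5 CPM in control fish, and 10.9, 15.8, 9.90, 13.0 and 10.4 CPM in 32 °C LPS fish, against 14.3, 19.7, 11.5, 21.6 and 16.3 CPM in control fish. All 3 pairs overlapped.

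aurkb, the Aurora kinase of the chromosomal passenger complex, had 10.5, 12.6, 9.66, 8.68 and 15.1 CPM in 24 °C LPS fish, against 11.6, 9.05, 14.2 and 8.84 CPM in 4 control fish and 110.2 CPM in replicate 4. It had 12.1, 9.82, 16.0, 8.04 and 13.4 CPM in 28 °C LPS fish, against 8.09, 7.91, 13.0, 3.80 and 5.54 CPM in control fish, and 9.27, 15.9, 8.81, 13.0 and 13.1 CPM in 32 °C LPS fish, against 8.20, 21.0, 11.2, 19.5 and 8.31 CPM in control fish. At 28 °C, 4 of 5 LPS fish were above 4 of 5 control fish (0.58 ± 0.30, adjusted p = 0.562 by edgeR without 24 °C control replicate 4).

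aurka, by contrast, did not overlap at 24 °C, with 2.97, 3.36, 3.08, 3.45 and 3.25 CPM in LPS fish and 4.26, 4.14, 6.62 and 4.47 CPM in 4 control fish, beside 135 CPM in replicate 4. The difference without that library was -0.53 ± 0.34 (adjusted p = 0.556 by edgeR). The remaining kinase and checkpoint genes, bub1, bub1bb, ttk and cdca8, had log2 fold changes between -0.31 and 0.27 for LPS at 24 °C in that fit.

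Of the kinetochore and spindle genes, all 8 had negative log2 fold changes for LPS at 24 °C without 24 °C control replicate 4, with a median of -0.54. cenpe, a kinesin that moves chromosomes to the spindle equator, had 13.7, 14.9, 14.6, 14.8 and 16.1 CPM in 24 °C LPS fish, against 28.1, 22.6, 26.0 and 19.1 CPM in 4 control fish and 100.4 CPM in replicate 4. dlgap5, a microtubule-binding protein of the spindle, had 5.80, 6.34, 4.87, 6.30 and 7.62 CPM in 24 °C LPS fish, against 10.5, 10.0, 16.4 and 9.62 CPM in 4 control fish and 45.3 CPM in replicate 4. In both genes every LPS fish was below every control fish.

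The fold change without replicate 4 was -0.62 ± 0.28 for cenpe (adjusted p = 0.464) and -0.84 ± 0.30 for dlgap5 (adjusted p = 0.424), by edgeR. The lowest of the 8 was cenpf, a kinetochore protein, at -0.88 ± 0.45. nusap1, a microtubule-bundling protein, had the smallest p of any member for LPS at 28 °C and at 32 °C with all libraries, in opposite directions. At 28 °C it had 13.5, 10.3, 12.5, 8.87 and 10.6 CPM in LPS fish and 7.11, 7.83, 13.0, 2.95 and 2.88 CPM in control fish, and at 32 °C 4.72, 12.7, 5.03, 9.40 and 8.24 CPM in LPS fish and 12.2, 15.0, 7.92, 23.6 and 12.1 CPM in control fish. The ranges overlapped at both temperatures.

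Of the chromosome structure genes, mki67, which encodes the proliferation marker Ki-67, was at 40.3, 39.9, 27.1, 25.6 and 45.7 CPM in 24 °C LPS fish, against 47.7, 45.9, 39.0 and 28.4 CPM in 4 control fish and 136 CPM in replicate 4. It was at 45.7, 56.4, 34.5, 16.5 and 33.2 CPM in 28 °C LPS fish, against 31.7, 32.0, 33.7, 25.8 and 22.6 CPM in control fish, and at 32.2, 61.1, 26.1, 29.4 and 33.0 CPM in 32 °C LPS fish, against 53.2, 63.7, 32.3, 60.8 and 36.4 CPM in control fish. LPS fish of 28 °C spread over a wider range than their controls, on both sides.

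top2a, topoisomerase II, was at 18.5, 16.7, 19.1, 18.0 and 24.8 CPM in 24 °C LPS fish, against 28.8, 26.3, 24.5 and 16.8 CPM in 4 control fish and 143 CPM in replicate 4. Its values were 24.6, 28.7, 27.0, 15.1 and 19.8 CPM in 28 °C LPS fish, against 23.6, 19.2, 20.5, 10.6 and 8.60 CPM in control fish, and 15.0, 34.4, 14.3, 24.0 and 19.0 CPM in 32 °C LPS fish, against 38.5, 33.3, 16.3, 49.5 and 27.3 CPM in control fish. In 28 °C control fish, replicates 5 and 7 were the lowest of the 29. ncaph, a condensin subunit, was at 7.10, 7.42, 5.44, 7.25 and 7.46 CPM in 24 °C LPS fish, against 8.07, 7.85, 8.36 and 8.27 CPM in 4 control fish and 52.7 CPM in replicate 4. All 5 LPS fish were below the controls, with a fold change of only -0.16 ± 0.29 without replicate 4.

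In mitotic exit, cdc20, the activator of the anaphase promoting complex, had 4.69, 5.52, 6.33, 4.75 and 5.92 CPM in 24 °C LPS fish, against 9.56, 10.6, 13.3 and 7.85 CPM in 4 control fish and 200.0 CPM in replicate 4. It had 9.07, 7.04, 11.4, 4.34 and 7.12 CPM in 28 °C LPS fish, against 4.26, 5.35, 7.60, 4.20 and 4.85 CPM in control fish, and 4.10, 8.97, 3.83, 9.63 and 4.50 CPM in 32 °C LPS fish, against 7.49, 8.63, 5.31, 11.8 and 7.43 CPM in control fish. At 24 °C the highest LPS fish (6.33 CPM) was below the lowest control fish (7.85 CPM). espl1, the protease separase that cuts cohesin, also had no overlap at 24 °C, with 7.52, 6.82, 6.13, 7.07 and 8.74 CPM in LPS fish and 11.1, 9.10, 12.3 and 8.90 CPM in 4 control fish, beside 66.5 CPM in replicate 4.

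LPS against control fish was then tested across all genes. At 24 °C, 0 members were called higher or lower by edgeR, against 0.0168% of all tested genes called higher and 0% lower, while 31 members had an unadjusted p under 0.05. Counts of members with an unadjusted p under 0.05, here and below, have no share of all tested genes beside them. They are not read as results about the members. Counts of members above or below 0 also have no such share, and the members vary together in the same fish. DESeq2 called 6 members lower, against 0.919% of the genes it tested, and limma voom called 0. DESeq2 gave no adjusted p-value for some members, and these count as not called wherever its counts are given. edgeR called 18 members lower when 24 °C control replicate 2, 5 or 8 was left out, against 1.34%, 1.28% and 1.36% of all genes in those fits, and 15 without replicate 3, against 0.748%. The smallest p-values belonged to cdc20 (-3.15 ± 0.65, adjusted p = 0.0539), ccnb1 and aurka (-3.25 ± 0.73, adjusted p = 0.0539), and 46 of 47 values were below 0. The median over the members was -1.30, against -0.12 over all tested genes. Without 24 °C control replicate 4 the median was -0.16, against 0.04 over all tested genes, with 29 of 47 below 0 and 3 unadjusted p-values under 0.05.

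Without that library, 0 members were again called at 24 °C, against 0.0111% of all genes higher and 0% lower. cdc20 had -0.85 ± 0.29 (adjusted p = 0.422 by edgeR), and its mean was 5.44 ± 0.718 CPM in LPS fish and 10.3 ± 2.27 CPM in control fish (SD, n = 5 and 4). In 6 of 47 members (12.8%) every 24 °C LPS fish was below every 24 °C control fish: ncaph, espl1, aurka, cdc20, cenpe and dlgap5. Among all tested genes this was so in 1.75% with replicate 4 counted and in 3.19% without it. By role, the medians without replicate 4 were -0.54 for kinetochore and spindle genes, -0.44 for mitotic exit, -0.26 for cyclins and Cdk1, -0.21 for chromosome structure, -0.17 for mitotic kinases, 0.10 for nucleotide supply and 0.14 for replication. Thus the mitosis medians lay below 0, and both S phase medians were slightly above the median over all tested genes given above. No single gene passed the threshold. The nucleotide supply median rests on 4 rows, including the second rrm2 ID, whose fold changes are not read here. By fish, the mitosis median minus the replication and nucleotide median overlapped. It was -0.46 to 0.10 in 24 °C LPS fish and -0.17 to 0.50 in the 4 control fish (within-group SD 0.362 over 29 libraries). Erythroid markers also differed between these groups, with a median sum of 52294 CPM (45366 to 87950) in LPS fish and 93773 CPM (77329 to 112960) in the 4 control fish, and neutrophil markers (9 rows for 10 names) had a median of 613 CPM in LPS fish and 432 CPM in the 4 control fish. The macrophage sum had medians of 5123 CPM in 24 °C LPS fish and 3896 CPM in the 4 control fish. The acinar pancreas sum had medians of 4091 CPM (296 to 11115) and 577 CPM (328 to 761) in the same order. The part of all these markers in the result was not tested.

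For LPS at 28 °C, 0 members were called by edgeR, DESeq2 or limma voom, against 0.0112% of all genes called higher and 0% lower by edgeR, and 0 had an unadjusted p under 0.05. The median was 0.35 over the members, with 41 of 47 above 0, and 0.02 over all tested genes. By fish, the members' median centred log2 CPM overlapped, at -0.54 to 0.27 in LPS fish and -0.95 to 0.19 in control fish. nusap1 had 0.72 ± 0.42 (adjusted p = 0.666), tyms 0.58 ± 0.35 and pcna 0.39 ± 0.25 (adjusted p = 0.688), by edgeR. The erythroid sum had a median of 113420 CPM in LPS fish and 51943 CPM in control fish here, a difference in the other direction from that at 24 °C. The neutrophil sum had medians of 564 CPM in LPS fish and 708 CPM in control fish. Blood progenitor markers summed to 432 to 605 CPM in LPS fish and 682 to 1249.7 CPM in control fish. The endothelial and stroma sum had medians of 1489 CPM in LPS fish and 2438 CPM in control fish. The part of these cells in the result was not tested. Leaving out each library in turn kept the members' median between 0.17 and 0.46, lowest without 28 °C control replicate 5. Each of these fits kept replicate 5 or 7 of the control fish, so the range does not show the median without both. In the fit without 24 °C control replicate 4, 0 members were called, against 0.0277% of all genes higher and 0% lower, and the median was 0.30. The same 28 °C control fish, among them the low replicates 5 and 7, also enter both control comparisons with 28 °C below. The members' medians in these comparisons are therefore not independent.

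At 32 °C, 0 members were called by the same 3 tools, against 0.00561% of all genes called higher and 0% lower by edgeR, and 0 had an unadjusted p under 0.05. The median was -0.34 over the members, with 43 of 47 below 0, and -0.02 over all tested genes. By fish, the members' median centred log2 CPM overlapped here too, at -0.48 to 0.62 in LPS fish and 0.08 to 0.68 in control fish. nusap1 had -0.82 ± 0.42 (adjusted p = 0.692), cdk1 -0.49 ± 0.32 and top2a -0.63 ± 0.42 (adjusted p = 0.773), by edgeR. The macrophage marker sum had a median of 4102 CPM in LPS fish and 6556 CPM in control fish, and the acinar pancreas sum 704 CPM in LPS fish and 12219 CPM in control fish. The erythroid sum had medians of 69511 CPM in LPS fish and 81506 CPM in control fish, and the neutrophil sum 487 CPM in LPS fish and 351 CPM in control fish. The part of these cells in the result was not tested. Leaving out each library kept the median between -0.54 and -0.21. The fit of 29 libraries also called 0 members, against 0.00553% of all genes higher and 0% lower, and 4 had an unadjusted p under 0.05. For the average of the 3 temperatures, 0 members were called, against 0.0112% of all genes higher and 0% lower, 17 had an unadjusted p under 0.05, and the median was -0.40. The smallest p-values belonged to ccnb1 (-1.39 ± 0.44) and plk1 (-0.99 ± 0.33, adjusted p = 0.813 by edgeR for both). Without 24 °C control replicate 4 that median was -0.07, with 0 members called, against 0.0332% of all genes higher and 0% lower, and 0 unadjusted p-values under 0.05.

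**Figure D5:**
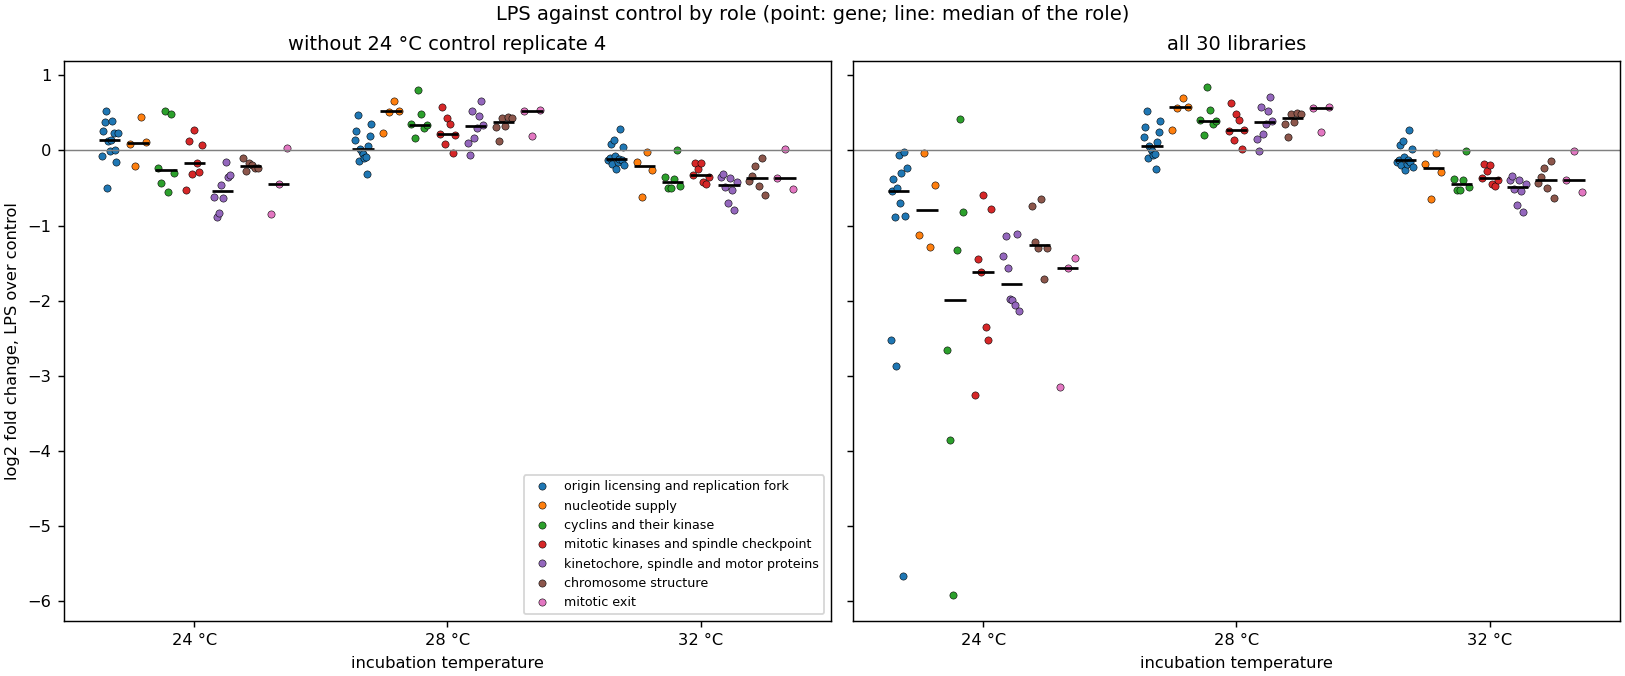
log2 fold change of LPS over control for each cell cycle gene at each incubation temperature, by role (line: median of the role), without 24 °C control replicate 4 on the left and with all 30 libraries on the right. At 24 °C the points reach -5.93 with that library and lie between -0.88 and 0.53 without it, while the 28 °C and 32 °C points are nearly the same in both panels.

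Control fish were compared between incubation temperatures. At 24 against 28 °C, 20 of the 47 members were called higher and 0 lower, against 1.54% of all tested genes higher and 0.925% lower. They were ccna2, ccnb1 and ccnb2, the kinases aurka, aurkb and plk1 with cdca8 (borealin, a partner of aurkb), the spindle genes dlgap5, kif11, kif20a, kif23 and tpx2, the condensin genes ncaph and smc4, cdc20, espl1, cdc6, gmnn, the rrm2 ID ENSDARG00000078069 and the mcm6 ID ENSDARG00000033231. The log2 fold changes ran from 1.48 ± 0.41 in espl1 (adjusted p = 0.049) to 6.42 ± 1.36 in ccnb2 (adjusted p = 0.0269), by edgeR. All 20 calls went when the fish with ovary transcripts was left out. The number called was also 0 when 28 °C control replicate 2, 3 or 7 was left out, and 0% of all genes were called higher in those fits. It was 3 without 28 °C control replicate 5 (0.308% of all genes higher), 9 without replicate 1 (0.568%) and 32 without 24 °C control replicate 8 (3.01%). DESeq2 called 17 higher, against 2.7% of the genes it tested, and limma voom called 0.

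The called members not yet given by fish were as follows in control fish. cdc6 was at 121 CPM in 24 °C control replicate 4 and 5.39, 4.79, 6.99 and 5.05 CPM in the other 4, against 5.90, 3.99, 3.72, 3.97 and 2.83 CPM at 28 °C. gmnn was at 237 CPM in that fish and 5.85, 11.2, 9.32 and 19.4 CPM in the other 4, against 7.23, 3.77, 16.2, 11.5 and 11.5 CPM at 28 °C. cdca8 was at 93.1 CPM in that fish and 4.71, 4.70, 6.51 and 5.05 CPM in the other 4, against 4.61, 1.69, 7.52, 1.76 and 1.67 CPM at 28 °C. In all 3 the other 4 fish overlapped the 28 °C fish.

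The spindle motors kif11 and kif20a and the spindle assembly factor tpx2 had the same shape. kif11 was at 162 CPM in 24 °C control replicate 4 and 17.8, 14.9, 23.1 and 11.0 CPM in the other 4, against 12.3, 12.1, 17.7, 7.43 and 6.75 CPM at 28 °C. kif20a was at 76.9 CPM in that fish and 10.2, 8.45, 12.9 and 6.19 CPM in the other 4, against 7.85, 6.18, 10.2, 2.89 and 2.77 CPM at 28 °C. tpx2 was at 219 CPM in that fish and 17.9, 14.7, 23.0 and 13.4 CPM in the other 4, against 14.2, 12.7, 18.1, 6.86 and 7.38 CPM at 28 °C. The 4 fish again overlapped the 28 °C fish in each gene.

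The largest folds were those of 2 rows with low values. ccnb2 was at 333 CPM in 24 °C control replicate 4 and 0.861, 0.517, 1.27 and 0.572 CPM in the other 4, against 1.09, 0.829, 1.21, 0.227 and 0.461 CPM at 28 °C. mcm6 ENSDARG00000033231 was at 163 CPM in that fish and 0.272, 0.431, 0.423 and 1.14 CPM in the other 4, against 0.117, 0.226, 1.08, 1.08 and 0.923 CPM at 28 °C. Apart from 1 library, the values of the 2 groups overlapped in both genes.

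Without that library, 0 members were called by edgeR, against 0.00553% of all genes higher and 0.0332% lower, and 4 had an unadjusted p under 0.05. The median fell to 0.40 without that library, against 1.45 with it, with 43 of 47 still above 0 and a median of -0.02 over all tested genes. cdc20 was then at 0.91 ± 0.29 (adjusted p = 0.22), dlgap5 at 0.87 ± 0.30 (adjusted p = 0.258) and ccnb2 at -0.01 ± 0.48. In 4 members (8.51%), ncaph, cdc20, dlgap5 and smc4, every 24 °C control fish was above every 28 °C control fish, against 1.48% of all tested genes with replicate 4 and 2.21% without it. smc4, a condensin subunit, was at 22.3, 22.9, 18.8 and 17.5 CPM in 4 of the 24 °C control fish, against 17.3, 16.8, 13.2, 7.66 and 8.65 CPM in 28 °C control fish. This comparison shares its 24 °C control fish with the LPS comparison at 24 °C, so cdc20, dlgap5 and ncaph are separated in both by the same control values.

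At 32 against 28 °C, 0 members were called by edgeR, DESeq2 or limma voom in control fish, against 0.42% of all tested genes called higher and 0.213% lower by edgeR, and 11 had an unadjusted p under 0.05. The median was 0.63, with 46 of 47 above 0, against 0.03 over all tested genes. pcna had 0.77 ± 0.25 (adjusted p = 0.132) and tyms 0.97 ± 0.35 (adjusted p = 0.176), by edgeR. With 24 °C control replicate 4 out of the shared fit, 24 members had an unadjusted p under 0.05 and 0 were called, against 0.404% of all genes higher and 0.288% lower.

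The smallest p in that fit belonged to kif23, a kinesin of cytokinesis, at 0.98 ± 0.25 (adjusted p = 0.0555 by edgeR). It had 11.9, 19.2, 14.1, 17.3 and 13.5 CPM in 32 °C control fish, against 7.85, 8.21, 11.7, 4.94 and 4.38 CPM in 28 °C control fish. It was the 1 member (2.13%) whose 2 groups did not overlap, against 1.63% of all tested genes. The 28 °C control fish replicates 5 and 7 were the lowest of their group for kif23. Leaving out each library in turn kept the members' median between 0.48 and 0.73, lowest without 28 °C control replicate 5. No fit left out both replicates 5 and 7, so the range does not show the median without both.

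At 32 against 24 °C, edgeR called 0 members in control fish with all libraries, against 0.0224% of all genes higher and 0% lower, and 23 had an unadjusted p under 0.05. DESeq2 called 1 member lower, against 0.632% of the genes it tested, and limma voom called 0. edgeR called 7, 4, 5 and 3 members lower without 24 °C control replicate 2, 3, 5 and 8, against 0.358%, 0.209%, 0.369% and 0.121% of all genes in those fits. The median was -0.76 with 24 °C control replicate 4 and 0.23 without it. Its smallest p-values were those of aurka (-2.97 ± 0.72, adjusted p = 0.0938) and cdc20 (-2.57 ± 0.63, adjusted p = 0.0938) with all libraries, by edgeR. Without that library gins2 (0.91 ± 0.33, adjusted p = 0.342) and ccnb2 (1.32 ± 0.50, adjusted p = 0.349) had the smallest, and 0 members were called, against 0.0166% of all genes higher and 0% lower.

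LPS fish were compared between incubation temperatures too. Neither a member nor any other gene was called by edgeR at 24 against 28 °C, 32 against 28 °C or 32 against 24 °C (0% in each direction in all 3), and 0 members had an unadjusted p under 0.05. The medians were -0.09, 0.02 and 0.09. The members with the smallest p at 24 against 28 °C were dlgap5 (-0.54 ± 0.37, adjusted p = 0.64) and mcm5 (0.48 ± 0.35, adjusted p = 0.651). They were ccne2 (0.32 ± 0.27, adjusted p = 0.999) and nusap1 (-0.48 ± 0.42) at 32 against 28 °C, and mcm7 (0.39 ± 0.32, adjusted p = 0.92) and espl1 (0.36 ± 0.40) at 32 against 24 °C. In the fit without 24 °C control replicate 4, which is in none of these groups but shares the estimate of the spread, 0 members were called, against 0% of all genes in each direction, 0 had an unadjusted p under 0.05, and the medians were -0.04, 0.04 and 0.05.

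The LPS response itself was compared between temperatures. At 24 minus 28 °C, 1 member, cdc20, was called, with a difference of -3.71 ± 0.88 (adjusted p = 0.0424 by edgeR), against 0.168% of all tested genes called lower and 0.583% higher. Without 24 °C control replicate 4 its difference was -1.37 ± 0.39 (adjusted p = 0.105) and 0 members were called, against 0.00553% of all genes lower and 0.188% higher, with 2 unadjusted p-values under 0.05. dlgap5 was next in both fits, at -2.14 ± 0.53 (adjusted p = 0.0506) and -1.36 ± 0.42 (adjusted p = 0.122). The call for cdc20 was lost in 18 of the 30 fits that each left out 1 library.

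At 32 minus 28 °C, 0 members were called, against 0.0224% of all genes higher and 0.0897% lower, 2 had an unadjusted p under 0.05, and the median was -0.66. nusap1 had -1.54 ± 0.59 (adjusted p = 0.358) and dlgap5 -1.09 ± 0.53. The fit of 29 libraries called 0 members too, against 0.0277% of all genes higher and 0.072% lower. At 32 minus 24 °C, 0 members were called, against 0% of all genes higher and 0.0224% lower, 14 had an unadjusted p under 0.05, and the median was 0.93 with all libraries and -0.24 without 24 °C control replicate 4. The smallest p-values there were those of mcm6 ENSDARG00000033231 (5.95 ± 1.73, adjusted p = 0.329) and ccnb2 (5.40 ± 1.67), which were at 0.05 ± 1.01 and -1.02 ± 0.67 without that library.

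Other cell cycle genes, grouped in lists, were counted in the same fits. In none of the 7 lists was a gene called for LPS at 24, 28 or 32 °C, in either fit, against at most 0.0277% of all genes. In control fish at 24 against 28 °C with all libraries, 1.54% of all tested genes were called higher and 0.925% lower. In the lists 0 genes were lower, and 0 of 8 CDK inhibitors and 0 of 15 genes of the anaphase promoting complex were higher. Called higher were 13 of 55 other mitosis genes, 6 of 40 other replication genes and 2 of 17 checkpoint and repair genes. So were 2 of 10 G1 cyclins and kinases and 1 of 21 RB, E2F and related transcription factors. Examples were bora, an activator of Aurora A, at 3.59 ± 0.85 (adjusted p = 0.0284), fbxo5, an inhibitor of the anaphase promoting complex, at 3.24 ± 0.73, ccne1 at 2.83 ± 0.63 and foxm1, a transcription factor for mitosis genes, at 1.58 ± 0.36 (adjusted p = 0.027 by edgeR). In the fit of 29 libraries 0 of the listed genes were called there, against 0.00553% of all genes higher and 0.0332% lower.

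In that smaller fit 1 gene of the lists was called in any of the comparisons named here: dhfr, dihydrofolate reductase, which supplies thymidine synthesis. It was higher in 32 °C than in 28 °C control fish, at 1.05 ± 0.23 (adjusted p = 0.0353 by edgeR), and the adjusted p with all 30 libraries was 0.0613. It had 10.2, 14.3, 14.8, 18.3 and 11.2 CPM in 32 °C control fish, against 6.45, 5.91, 6.31, 5.50 and 8.02 CPM in 28 °C control fish. Every 32 °C fish was above every 28 °C fish, as in 1.63% of all tested genes. In the smaller fit 0.404% of all tested genes were called higher in this comparison. The medians of the lists for LPS at 24 °C without replicate 4 were -0.24 for other mitosis genes (40 of 55 below 0) and 0.26 for other replication genes (34 of 40 above 0), against 0.04 over all tested genes.

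Cdk inhibitors, which hold cells back from division, did not pass the threshold in those comparisons. cdkn1ca, of the p57 family, had the smallest p of them on average over temperatures (-1.60 ± 0.47, adjusted p = 0.813 by edgeR). It had 0.703, 0.497, 0.878, 0.277 and 0.567 CPM in 28 °C LPS fish, against 1.91, 12.0, 5.36, 0.284 and 3.52 CPM in 28 °C control fish. Here 4 of 5 control fish were above all LPS fish, and replicate 5 was at the bottom of the range.

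Over 29 fish, with group means removed, log2 CPM of mki67 was compared with that of 5 other members and of 6 cell type markers. The neutrophil gene mpx was planned as a further marker but was not compared, so no neutrophil marker is among them. The family held 11 relations, with p-values from permutation within groups and Benjamini-Hochberg adjustment. With top2a Pearson's r was 0.756 (permutation p = 2e-05, adjusted 0.00022) and Spearman's rho 0.763 (permutation p = 4e-05, adjusted 0.00044), and r was 0.766 without the 2 fish farthest from the median of mki67. With cdk1 r was 0.54 (permutation p = 0.00206, adjusted 0.0113) and rho 0.574 (adjusted 0.00973), and r was 0.458 without those fish. With ccnb1 r was 0.528 (adjusted 0.0289) and rho 0.524 (adjusted 0.0282), and r fell to 0.35 without them.

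For the replication genes, with pcna r was 0.516 (permutation p = 0.0133, adjusted 0.0367) and rho 0.422 (adjusted 0.115), and with mcm2 r was 0.515 (adjusted 0.0371) and rho 0.314 (adjusted 0.233). Without the 2 farthest fish these r were 0.344 and 0.358. With the erythroid genes alas2 and gata1a r was -0.32 and -0.398 (adjusted 0.186 and 0.0865), and rho -0.239 and -0.364. With cd79a (B cells), lck (T cells), zp3b (oocytes) and prss1 (acinar pancreas) r lay between 0.008 and 0.4, and all 4 adjusted permutation p-values were at least 0.116. With 24 °C control replicate 4 included (30 fish), r was 0.851 for top2a, 0.688 for cdk1, 0.713 for ccnb1, 0.696 for pcna and 0.707 for mcm2, with adjusted permutation p-values of at most 0.00693. With the 30 fish r was -0.505 for gata1a (adjusted permutation p = 0.0199; rho -0.476, adjusted 0.0264) and -0.429 for alas2 (adjusted 0.0452; rho -0.324, adjusted 0.132), so that these 2 relations passed 0.05 by r with that library included and not without it. All pairs share the library, its depth and its scaling.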

How the data were processed

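RNA-seq of 30 spleens was analysed. The authors deposited raw read counts per Ensembl gene ID. The submitters' processing notes name bcl2fastq, cutadapt 1.12, FastQC 0.11.5, STAR, DESeq2 1.11.1 and the build GRCz11, while the sources used here give no counting program, annotation or strand setting. Per the labels' protocols, libraries were poly(A)-selected with a directional kit. Symbols came from an Ensembl name table (29178 of 31901 IDs).

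edgeR 4.0.16 (R 4.3.3) was fitted to the deposited counts of all 30 libraries, with TMM scaling, filterByExpr, 6 group means and robust quasi-likelihood F tests (24 residual degrees of freedom, common biological coefficient of variation 0.503). Each comparison was adjusted by Benjamini-Hochberg over 17841 genes, or 18067 without 24 °C control replicate 4, at a threshold of 0.05. SEs were derived from the F statistics, as the fold change over the root of F. Log2 CPM used a prior count of 2. Relations across fish were tested with 100000 permutations within groups (numpy 2.4.6, scipy 1.17.1, Python 3.11.15). The fit was tested on data simulated with the spread estimated from all 30 libraries. For LPS at 24 °C it called 33 of 100 simulated 2-fold changes and 84 of 100 simulated 4-fold changes. It called 4 of 17641 unchanged genes. Alternatives were DESeq2 1.42.0 and its size factors, limma 3.58.1 voom with quality weights, 2 other filters, only the groups compared, a replicate block, the 3 libraries that stand apart left out, and each library left out.

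The members and lists were chosen with earlier results of these data known. Values by fish are given for 12 proliferation genes. They are also given, in some groups only, for most members with an adjusted p under 0.05 or the smallest p-values in a comparison. mcm7, ccne2 and gins2 had such p-values and are not given by fish. Other genes named were chosen after their values were seen where the text says so. No pair of replicates was a duplicate: the lowest chi-square per degree of freedom was 32.7. Promoter motifs were not analysed here.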

Additional observations from a re-analysis of the deposited data

Results flagged for a closer look

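For 12 members, each group of 5 fish was checked for a fish set apart on the log2 CPM scale. Such a fish had a gap to its neighbour of over 0.71 of the group's range. The levels below are in CPM, on which these shares differ. Of 72 groups 11 had such a fish, and chance gives about 1 in 20. The 12 members were measured in the same fish and vary together, so these groups were not independent checks.

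Of these, 8 were 24 °C control replicate 4, the fish with ovary transcripts. It stood at 143 CPM for top2a (16.8 to 28.8 in the others), 163 CPM for mcm2 (43.6 to 59.5), 150.4 CPM for mcm5 (33.1 to 49.7) and 516 CPM for ccnb1 (7.11 to 17.0). It stood at 259 CPM for ccna2 (10.4 to 14.3), 294 CPM for plk1 (12.1 to 22.6), 110.2 CPM for aurkb (8.84 to 14.2) and 200.0 CPM for cdc20 (7.85 to 13.3).

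The other 3 were in LPS fish. mki67 was at 61.1 CPM in 32 °C LPS replicate 2, against 26.1 to 33.0 CPM in the others of its group. cdk1 was at 17.7 CPM in 24 °C LPS replicate 8, against 11.2 to 12.5 CPM. The first rrm2 ID was at 7.27 CPM in 24 °C LPS replicate 3, against 18.5 to 26.7 CPM, and that fish carried the second ID.

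The LPS response of cdc20 differed between 24 and 28 °C by -3.71 on the log2 scale with all libraries, and by -1.37 without 24 °C control replicate 4, where it was not past the threshold.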

How the results depend on the processing

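Counts of members called and their median log2 fold changes changed with several settings, and the cause was not tested. Where no share of all genes called is given here or above, a count is not read as a result about the members. For LPS at 24 °C, 6 members were called by DESeq2 and 0 to 18 with 1 library left out, and the median was -0.23 without the 3 libraries that stand apart, -0.35 by limma voom and -1.48 to -0.16 with 1 library left out. For control fish at 24 against 28 °C, 0 were called without the 3 libraries, with only the groups compared and by limma voom, and 0 to 32 with 1 library left out, with medians of 0.46 without the 3 libraries, 0.60 by limma voom and 0.40 to 1.66 with 1 left out. At 32 against 24 °C, DESeq2 called 1 and leaving out 1 library gave 0 to 7, with medians of 0.11 without the 3 libraries, 0.0165 by limma voom and -0.99 to 0.23 with 1 left out. For the response at 24 minus 28 °C, the calls were 0 with no low-count filter, 3 with at least 1 CPM in 5 libraries, 0 without the 3 libraries, 0 with only the groups compared, 5 by DESeq2 (lower, against 2.07% of the genes it tested) and 0 to 6 with 1 library left out. Its medians were -0.58 without the 3 libraries, -0.67 by limma voom and -1.99 to -0.45 with 1 left out. At 32 minus 24 °C the medians were -0.0524, -0.18 and -0.24 to 1.11 under the same settings.

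Some genes reversed. Without the 3 libraries, LPS at 24 °C gave 0.33 for mcm5, 0.0497 for aurkb, 0.39 for rrm2 ENSDARG00000078069, 0.16 for pcna and 0.0619 for mcm2, and limma voom gave 0.22, 0.11 and 0.0674 for mcm5, that rrm2 ID and pcna. At 28 °C, at least 1 CPM in 5 libraries gave -0.0225 for plk1 and -0.0162 for mcm2, and limma voom -0.035 for plk1. At 32 °C limma voom gave 0.0911 for that rrm2 ID. mcm6 ENSDARG00000033231 was at -0.26 for 24 against 28 °C and -0.26 for 32 minus 24 °C without the 3 libraries, and at -0.25 for 32 minus 24 °C by limma voom. ccnb2 at 32 minus 24 °C was at -0.93 without the 3 libraries and -0.69 by limma voom. The mki67 and cd79a correlation was 0.079 without 24 °C control replicate 4.

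With 1 library left out, LPS at 24 °C ranged from -0.43 to 0.40 for mcm5, -1.68 to 0.12 for aurkb, -1.53 to 0.45 for that rrm2 ID, -0.32 to 0.23 for pcna and -0.63 to 0.13 for mcm2. At 28 °C it ranged from -0.28 to 0.14 for mcm5, -0.15 to 0.17 for plk1 and -0.15 to 0.15 for mcm2. At 32 °C it ranged from -0.46 to 0.0446 for mcm5, -0.32 to 0.0236 for aurkb, -0.28 to 0.23 for that rrm2 ID and -0.36 to 0.0512 for mcm2. At 24 against 28 °C in control fish ccnb2 ranged from -0.012 to 6.74 and mcm6 ENSDARG00000033231 from -0.29 to 5.93. At 32 minus 24 °C ccnb2 ranged from -1.02 to 5.72.

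Deviations of samples with the same replicate number correlated over 0.1 in 3 of 9 pairs (r from -0.139 to 0.441), so the numbers were not taken to pair the samples. With a replicate block 0 members were called in each comparison, with 24 of all genes called for LPS at 24 °C, 20 at 24 against 28 °C and 419 at 32 against 28 °C in control fish, and 170 for the response at 24 minus 28 °C. The block gave medians of 1.01 for control fish at 24 against 28 °C and -1.29 for the response at 24 minus 28 °C. For LPS at 28 °C the block gave -0.12 for ccnb1, -0.31 for plk1 and -0.19 for mcm2, and at 32 °C 0.14 for rrm2 ENSDARG00000078069.

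Whether depth limited the members was not tested. ccnb2 and the second mcm6 ID had few counts outside 1 library, and the second rrm2 ID had no count in 9 fish. Other members were low in some fish, such as gins2 with 12 counts in 28 °C LPS replicate 4. aurka had 18 counts in 28 °C control replicate 7. With 4 or 5 fish a group, a difference that missed the threshold is not shown to be absent. Intervals and SEs cover these samples only, and the reads had no molecular identifiers named in the labels.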

Other observations

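Outside the list, 2 further genes were looked at after their values were seen. ccne1, an E-type cyclin, had 76.7 CPM in 24 °C control replicate 4, against 2.16 to 5.99 CPM in the other 29 libraries. birc5 (ENSDARG00000075621), a gene named for survivin, had 28.8 CPM there, against 1.04 to 7.72 CPM.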
